A study of Canis lupus familiaris with 39 samples.

Results

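The carriers that move amino acids across cell membranes were followed through 10 canine tissues. They were taken as every probeset (a group of short probes that stands for one transcript) whose single gene symbol starts with SLC1A, SLC3A, SLC6A, SLC7A, SLC36A, SLC38A or SLC43A, without the creatine carrier SLC6A8. This gave 98 of the 42860 probesets on the array, for 53 of the 15115 genes with a symbol of their own. The SLC6 family contributed 34 probesets of 15 genes, SLC38 18 of 11, SLC7 16 of 12, SLC43 11 of 3, SLC1 8 of 6, SLC36 6 of 4 and SLC3 5 of 2. SLC7A6OS belongs by its symbol only: it is a gene on the strand opposite SLC7A6 and is no carrier. Not every other member carries amino acids. SLC6A2, SLC6A3 and SLC6A4 are monoamine carriers, and SLC43A3 carries purine nucleobases in human cells. Some carriers of these families, among them SLC1A7, SLC7A7, SLC7A13 and SLC6A19, had no probeset matched to their symbol and were not analysed here. Total RNA came from cerebrum (called brain here), heart, jejunum, kidney, liver, lung, peripheral lymph node, pancreas, skeletal muscle and spleen of untreated dogs, judged normal by pathology. There were 39 Affymetrix Canine Version 2.0 arrays, 3 for pancreas and 4 for each of the other tissues. By the methods of the study the animals were beagles and mixed-breed dogs of both sexes, from pups to adults, each giving every organ, and a pancreas array that lacked classic pancreatic genes had been left out before deposit. The labels do not tie an array to an animal, so a p-value here measures only the spread between arrays of the same tissue. For each probeset the fit took this spread as common to all 10 tissues, so it is not that of the named tissue alone.

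Amino acids are charged or polar and cross membranes only through proteins of this kind, which differ in the substrates they take and in whether they use the sodium or proton gradient, exchange one amino acid for another, or let it flow down its gradient. In gut and kidney, carriers of the apical brush border bring amino acids into the cell and others on the basolateral side release them to blood. In brain they clear the transmitters glutamate, GABA and glycine, and in liver they feed urea, glucose and plasma protein synthesis. Some SLC7 proteins are light chains that reach the membrane only in a disulphide-linked pair with an SLC3 heavy chain.

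Levels are given on the log2 scale of the array, where 1 unit is a doubling and a value near 4 is the level of most probesets (array medians 3.95 to 4.11). Where several probesets stand for a gene, values are of the brightest on average over all 39 arrays. Each tissue was compared in limma with the average of the means of the other 9 tissues, all weighted equally, a probeset was called at an adjusted p under 0.001 over all probesets, and the fold change is the ratio on the linear scale. A difference is given with its standard error (SE) from the fit, and a tissue mean with the SD between its arrays. RNA of a whole tissue was measured, so fewer cells of a type and less RNA per cell cannot be told apart.

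Before the results, several arrays stood apart by markers of other tissues. Of 4 exocrine pancreas (acinar) markers, the 3 measured (CPA1, CEL and PNLIP) had a mean between 13.52 and 13.60 in pancreas, and between 3.67 and 9.84 in skeletal muscle. The lipase PNLIP stood at 7.95, 9.25 and 11.08 on skeletal muscle arrays 1, 3 and 4, and at 4.01 on array 2. It was also raised on brain array 3 (7.57) and lymph node array 4 (5.94). In liver CEL alone was raised, at 5.61, 4.60, 8.73 and 10.17, while CPA1 stayed at or below 3.86 and PNLIP at or below 5.14 there. The hepatocyte product ALB stood at 11.04 and 11.09 on lung arrays 1 and 3, and at 7.91 and 10.81 on heart arrays 1 and 2. All 3 markers were above 5 on 5 arrays outside pancreas (skeletal muscle 1, 3 and 4, brain 3 and lymph node 4), named the marked arrays here. Results without them are given with genes whose calls were lost. Further gene calls lost were those of SLC43A1 in liver and lymph node and of SLC6A9 in pancreas. In skeletal muscle, with 1 array left, SLC38A5 and SLC7A14 had differences of -0.74 and -0.53, against -0.72 and -0.48 with all arrays. The defining markers of each tissue were nonetheless highest in the arrays of that tissue.

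Many carriers had no clear signal on this array. A mean above 5 in at least 1 tissue was reached by 50 of 98 probesets, where 49.5% of all probesets reached it, and by 27 of the 53 genes. All 27 passed the F test for a difference between tissues, which called 36 of 53 genes and 64 of 98 probesets (65.3%), where 54.6% of all probesets were called. Tissue means varied more among the carriers than among all probesets, with a median SD of the 10 tissue means of 0.47 against 0.31. Within a tissue the arrays were close, with a median SD of 0.15 for the carrier genes and 0.16 for all probesets. A probeset was named enriched in a tissue when it was called with a fold change above 10, which held for 22 of 98 carrier probesets (13 genes) in at least 1 tissue, where 7.58% of all probesets were enriched. It was named selective when no other tissue went above 3-fold, which held for 13 of 98 probesets (7 genes), where 3.56% of all probesets were selective. By tissue, 9 carrier probesets were enriched in liver (1.71% of all probesets were), 6 in kidney (1.07%), 4 in jejunum (0.842%), 3 in brain (1.74%), 3 in pancreas (0.439%) and 1 in lung (0.614%). None was enriched in heart (0.887%), skeletal muscle (0.852%), lymph node (0.558%) or spleen (0.49%). The heat map of tissue means shows that most bright cells lie in brain, jejunum, kidney, liver, lung and pancreas.

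**Figure D1:**
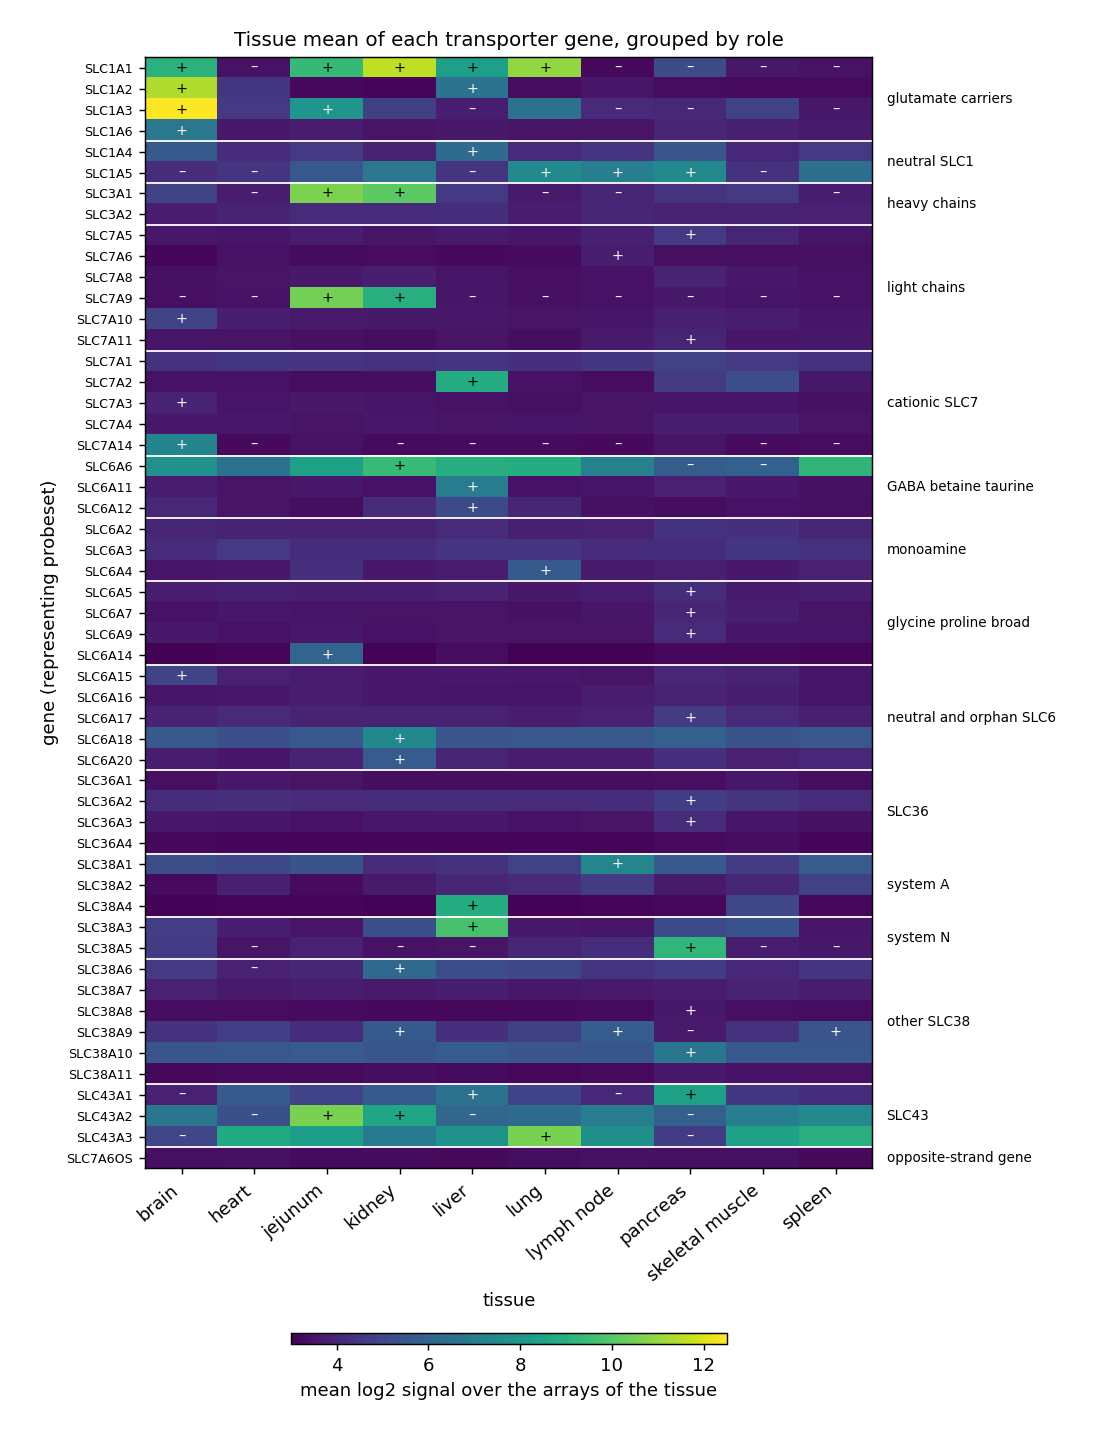
Mean log2 signal (colour) of the 53 genes, each by its representing probeset (rows, grouped by role), in the 10 tissues (columns; 4 arrays each, 3 for pancreas). A plus marks a gene called higher and a dash one called lower than the mean of the other 9 tissues; rows such as SLC7A9, SLC1A2 and SLC38A4 are bright in 1 or 2 tissues and near 3.5 elsewhere, while SLC6A6 and SLC43A3 are bright in many.

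The number of carriers called differed between tissues. In kidney 18 probesets were higher (7.41% of all probesets were) and 2 lower (3.94%). In liver 17 were higher (6.72%) and 6 lower (6.15%). In jejunum 10 were higher (6.12%) and 0 lower (3.85%); limma had 20 lower at an unadjusted p under 0.05, and the fit with an ordinary variance also called 0. In pancreas 23 were higher (13.4%) and 12 lower (11.1%). In brain 9 were higher (11.2%) and 8 lower (7.74%). In lung 6 were higher (7.26%) and 7 lower (4.22%), and in lymph node 6 were higher (9.95%) and 10 lower (6.93%). Heart had 0 higher (7.47%; limma had 5 at an unadjusted p under 0.05, and the fit with an ordinary variance called 1) and 12 lower (6.55%). Skeletal muscle had 1 higher (7.06%) and 7 lower (8.14%), and spleen had 1 higher (5.38%) and 9 lower (4.83%). In either direction, 9.97% of all probesets were called in jejunum, 10.2% in spleen, 11.4% in kidney, 11.5% in lung, 12.9% in liver, 14% in heart, 15.2% in skeletal muscle, 16.9% in lymph node, 19% in brain and 24.5% in pancreas. Many of the lower calls are of genes at the array background in that tissue, where a bright tissue elsewhere raises the mean of the other 9. SLC7A14, bright in brain alone, was called lower in 7 tissues with means between 3.26 and 3.33. The plot of the share of probesets called shows the carriers beside all probesets for each tissue.

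**Figure D2:**
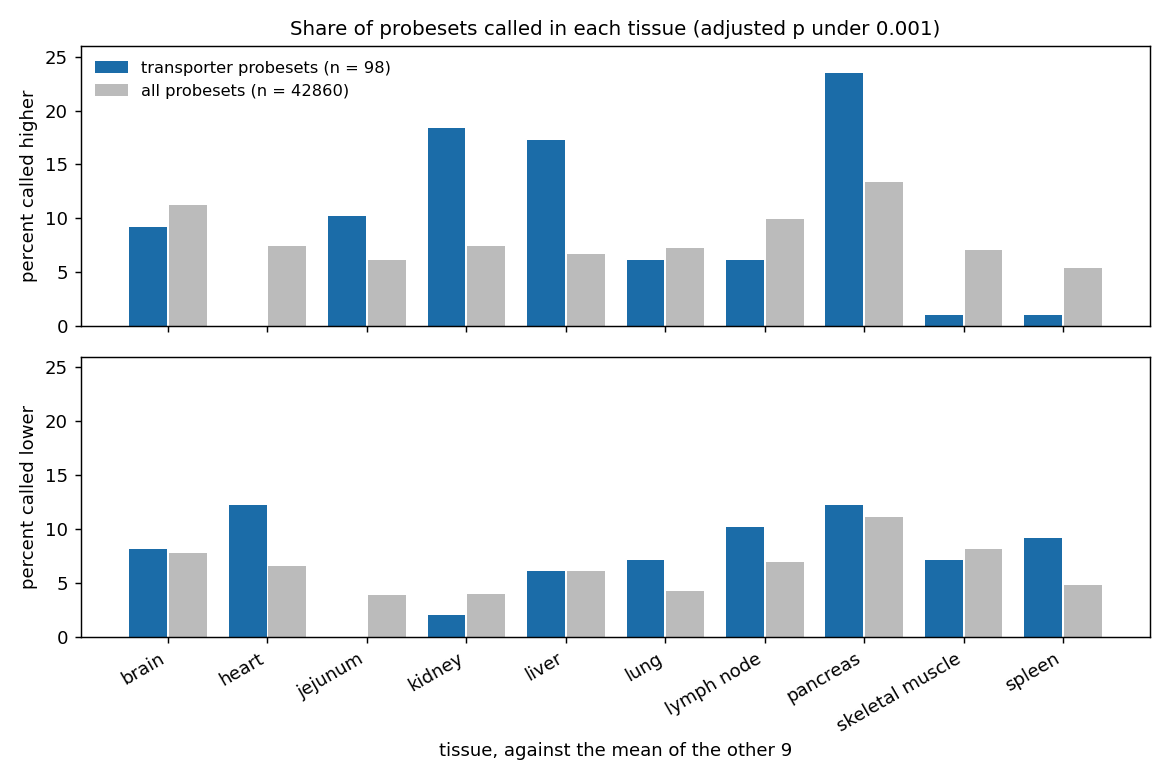
Percent of the 98 carrier probesets (blue, left) and of all 42860 probesets (grey, right) called higher (upper panel) or lower (lower panel) in each tissue against the mean of the other 9, at an adjusted p under 0.001. Kidney (18.4% of carriers), liver (17.3%) and pancreas (23.5%) have the tallest blue bars of the upper panel, while heart has no blue bar there and jejunum none in the lower panel.

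The split between higher and lower depended on how arrays were scaled. When arrays were instead shifted so that 17 housekeeping genes had 1 common median, the median difference of all probesets became 1.78 for pancreas, 0.29 for skeletal muscle and 0.20 for heart, and -0.67 for jejunum, -0.64 for brain, -0.48 for spleen, -0.42 for lung and -0.36 for lymph node. The carriers were then split 79 higher and 1 lower in pancreas, 10 and 12 in jejunum, 5 and 11 in brain, 2 and 9 in lymph node, 16 and 3 in liver and 0 and 3 in skeletal muscle. With arrays shifted to an equal median of all probesets, pancreas had 15 higher and 13 lower. Genes called higher in a tissue kept that call under both shifts, except SLC6A15, SLC7A10 and SLC7A3 in brain, SLC1A5, SLC38A9 and SLC7A6 in lymph node, SLC38A9 in kidney and spleen (housekeeping shift), and SLC38A8, SLC6A5, SLC6A9 and SLC7A11 in pancreas (equal median).

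The clearest pattern in the uptake tissues was that of the cystine carrier. SLC3A1 is the heavy chain and SLC7A9 the light chain of the brush border exchanger that takes up cystine and the basic amino acids, and loss of either causes cystinuria in people and dogs. SLC3A1 stood at 10.87, 10.79, 10.52 and 10.40 on the jejunum arrays and at 9.95, 9.96, 10.23 and 10.30 on the kidney arrays. On the other 31 arrays it ran between 3.37 and 6.66, with a median of 4.04. SLC7A9 stood at 10.23, 10.78, 10.26 and 10.75 in jejunum and at 8.73, 9.09, 8.67 and 9.37 in kidney. On the other 31 arrays SLC7A9 stayed between 3.26 and 3.87, so every jejunum and kidney array lay above all of them. The jejunum mean was 54.3-fold (SLC3A1; difference 5.76, SE 0.27, limma adjusted p = 1.5e-17) and 84.9-fold (SLC7A9; 6.41, SE 0.10, adjusted p = 3.93e-31) over the other 9. The kidney folds were 36.0 for SLC3A1 (adjusted p = 1.93e-16) and 25.9 for SLC7A9 (adjusted p = 5.93e-28). Over the 10 tissue means the pair had a Pearson's r of 0.98, given as a description, since both genes were read on the same arrays.

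Both genes had a higher mean in jejunum than in kidney. SLC7A9 was lower in kidney than in jejunum by 1.54 (SE 0.13, adjusted p = 1.85e-11), and no kidney array reached a jejunum array. For SLC3A1 the 2 organs were not told apart (adjusted p = 0.413), and a second SLC3A1 probeset gave 10.09 in jejunum and 9.90 in kidney (adjusted p = 0.844). The SLC7A9 difference between kidney and jejunum was -1.0 with an adjusted p of 0.0325 after the housekeeping shift. The highest SLC3A1 value outside these organs, 6.66, was on brain array 3, where the second probeset read 6.73, PNLIP 7.57 and ALB 6.78, and the part of other tissue in it was not tested. The plots of values by array show both genes high in these 2 organs over a low floor.

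The other heavy chain and the light chains that pair with it were at or near the array background. SLC3A2, the heavy chain of the carriers for large neutral amino acids found in most cells, had tissue means up to 4.24 and was not called by the F test. SLC7A5, its main light chain in dividing cells, stood at 5.19, 4.32 and 4.26 in pancreas, against a median of 3.61 on the other 36 arrays (fold 1.91, adjusted p = 2.66e-07). Skeletal muscle arrays 1 and 3, with raised acinar markers, read 4.22 and 4.35. Muscle array 4, with raised markers too, read lower, and the skeletal muscle mean was 3.98. SLC7A6, a light chain for basic and neutral amino acids, stood at 3.59, 3.55, 3.97 and 3.98 in lymph node, against a median of 3.32 on the other 35 arrays (fold 1.36, adjusted p = 4.49e-07), and lost this call after the housekeeping shift (adjusted p = 0.706). SLC7A8, a light chain of kidney and gut in other mammals, had its highest mean in pancreas (3.92) and was not called by the F test. SLC7A11, the cystine and glutamate exchanger, stood at 3.78, 3.75 and 4.45 in pancreas (fold 1.41, adjusted p = 0.000244), a call that was lost without pancreas array 3 (adjusted p = 0.0449). SLC7A10, a serine and glycine exchanger of brain, stood at 4.10, 5.28, 5.40 and 4.96 in brain, against a median of 3.64 on the other 35 arrays (fold 2.42, adjusted p = 2.1e-09; adjusted p = 0.0279 after the housekeeping shift). Only SLC7A9 of the 6 measured light chains had a tissue mean above 5.

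SLC43A2, which in mouse lets branched-chain and aromatic amino acids leave cells of gut and kidney on the basolateral side, was also highest in jejunum. Its arrays read 10.92, 10.15, 10.39 and 10.91 in jejunum and 8.66, 8.51, 8.19 and 9.08 in kidney, while the other 31 ran between 5.22 and 8.10. The jejunum mean was 14.5-fold over the other 9 (adjusted p = 1.96e-15), and the kidney mean 3.15-fold (adjusted p = 3.87e-07). Heart had the lowest level, at 5.43, 5.26, 5.22 and 5.42, and all 4 of its arrays lay below every other array (3.97-fold lower, adjusted p = 1.02e-08). Of its other 3 probesets, 2 were also highest in jejunum, at 8.88- and 3.93-fold, and 1 was dim in every tissue (means up to 3.64) and not called by the F test.

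**Figure D3:**
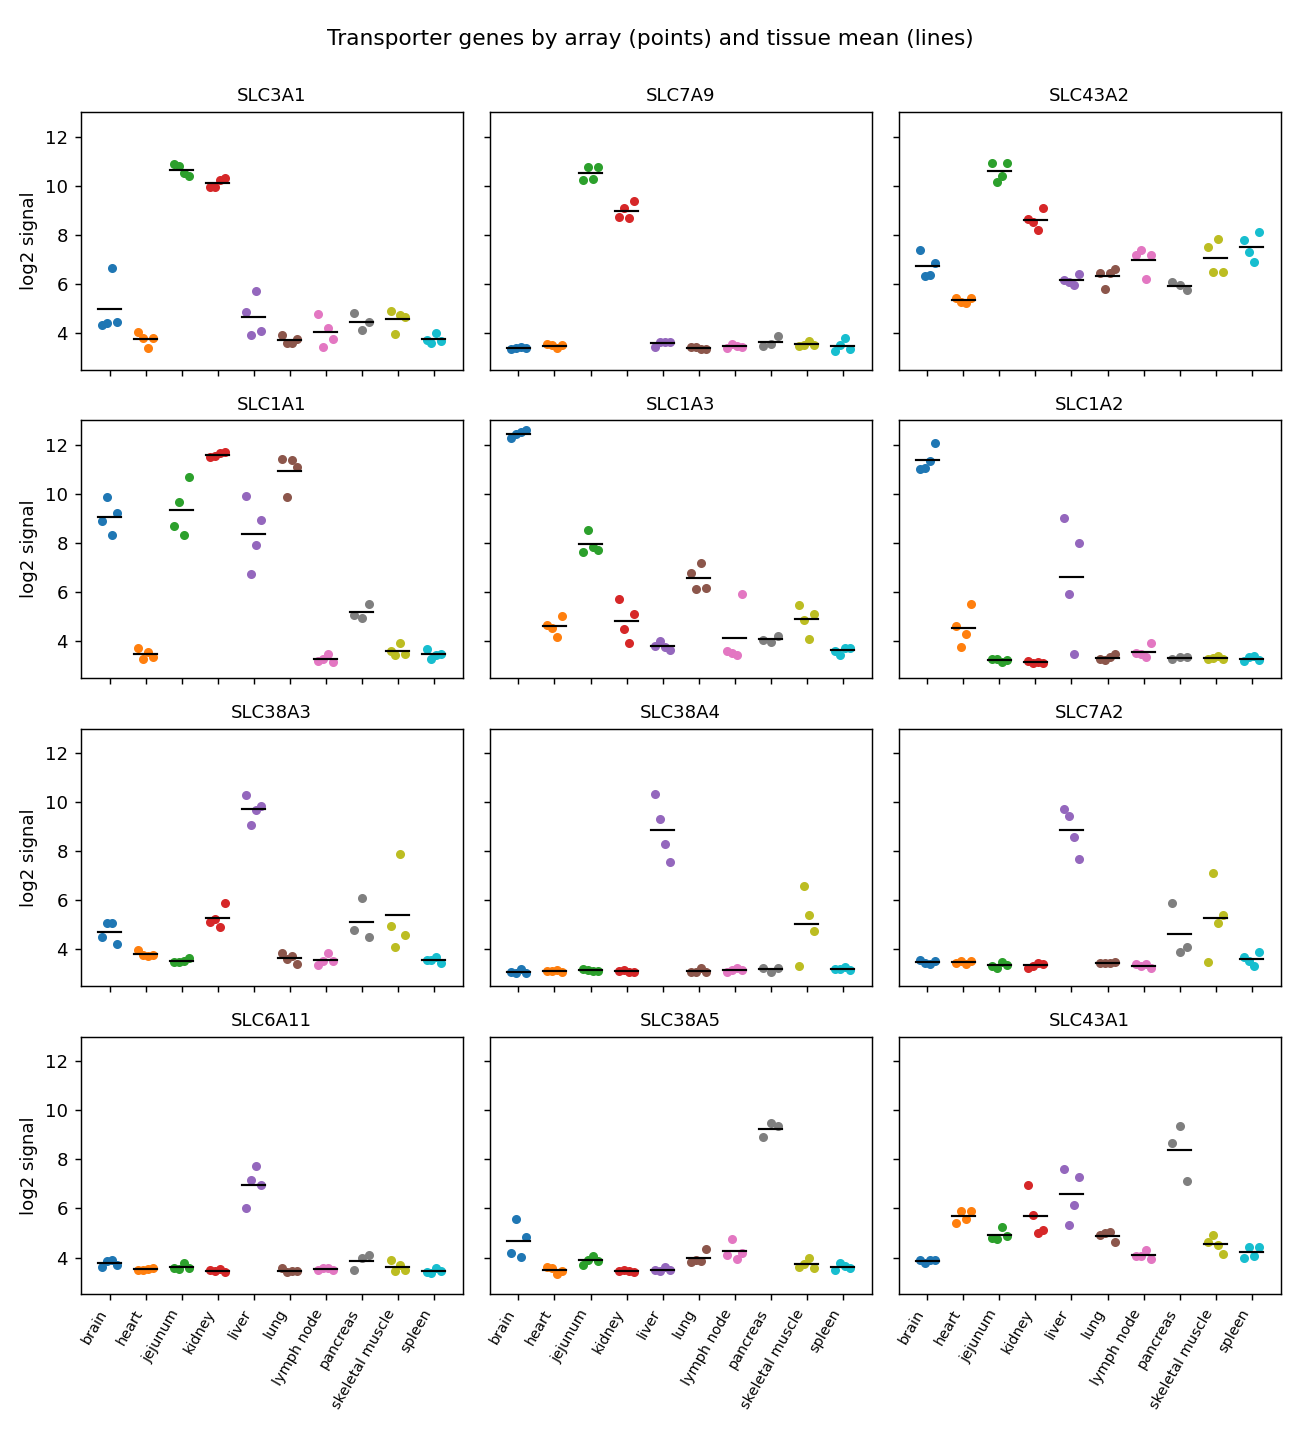
Log2 signal of 12 carrier genes on each of the 39 arrays (points, coloured by tissue) with the tissue mean (black line). SLC3A1 and SLC7A9 are high in jejunum and kidney only, SLC1A3 and SLC1A2 are highest in brain, SLC38A3, SLC38A4, SLC7A2 and SLC6A11 in liver, and SLC38A5 and SLC43A1 in pancreas; the 4 liver points of SLC1A2 spread between 3.47 and 9.02.

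Kidney and jejunum were compared directly, since both take up amino acids across a brush border. Of the 98 probesets, 10 were higher in kidney (5.29% of all probesets were) and 5 lower (4.13%). Among genes, SLC1A1, SLC38A6, SLC38A9, SLC6A18 and SLC6A20 were higher in kidney, and SLC1A3, SLC43A2, SLC6A14 and SLC7A9 were lower. SLC6A14, a carrier of broad substrate range driven by sodium and chloride, was read in jejunum alone, at 3.92, 8.65, 5.10 and 6.65, against 3.0 to 3.41 on the other 35 arrays. The jejunum arrays were all above the rest but spread over 4.73 units (fold 7.70 over the other 9, adjusted p = 2.96e-08; 12.7-fold without jejunum array 1 and 4.25-fold without array 2), and kidney was lower than jejunum by 2.98 (SE 0.45, adjusted p = 5e-06; by 3.70 and 2.12 without these arrays). SLC38A6, an orphan member of its family, stood at 5.56, 6.44, 6.74 and 6.28 in kidney and at 4.14, 3.96, 4.13 and 3.86 in jejunum (4.70-fold higher in kidney, adjusted p = 1.54e-08). SLC38A9, the arginine sensor of the lysosome, was 2.72-fold higher in kidney than in jejunum (5.70 ± 0.54 in kidney and 4.26 ± 0.15 in jejunum, SD, n = 4 each, adjusted p = 8e-06). SLC43A2 was lower in kidney by 1.98 (SE 0.29, adjusted p = 3.26e-06; adjusted p = 0.00713 after the housekeeping shift).

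**Figure D4:**
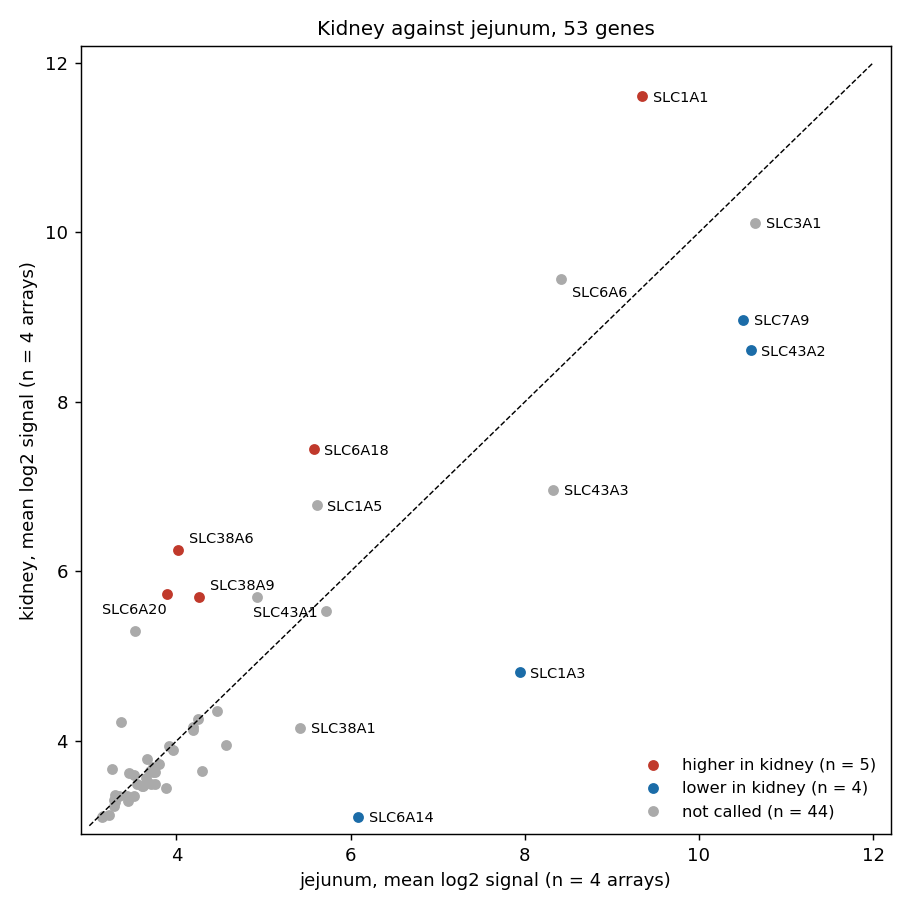
Mean log2 signal of the 53 genes in kidney (vertical axis) and jejunum (horizontal axis), 4 arrays each, with the line of equal signal. Genes higher in kidney (red, n = 5) and lower in kidney (blue, n = 4) at an adjusted p under 0.001 are named; SLC3A1 (10.11 in kidney and 10.64 in jejunum) lies high in both and near the line.

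Of the neutral and orphan carriers of the SLC6 family, 2 of 5 measured were called higher in kidney (7.41% of all probesets were). SLC6A18, a renal carrier of glycine and other neutral amino acids in mouse, and SLC6A20, a carrier of proline and other imino acids, both need a helper protein such as collectrin to reach the brush border in mouse. SLC6A18 stood at 7.73, 7.75, 7.64 and 6.65 in kidney, against 5.17 to 6.01 on the other 35 arrays (3.64-fold, adjusted p = 1.21e-13). SLC6A20 stood at 5.46, 6.36, 5.43 and 5.69 in kidney, against a median of 3.77 on the other 35 arrays, and pancreas array 1 overlapped at 5.44 (3.62-fold, adjusted p = 1.99e-09). A second SLC6A20 probeset was 10.2-fold higher in kidney (6.84 ± 0.51, SD, n = 4), and on it jejunum array 4 alone of the jejunum arrays read 6.41, the others 3.31 to 3.39.

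The 6 probesets annotated to SLC6A18 disagreed in their tissue. In 4 of them kidney was the single high tissue, and the largest of these differences was one with 8.43, 9.57, 9.77 and 8.12 in kidney against a mean of 3.71 in the other 9 tissues (38.6-fold, adjusted p = 7.64e-23). The fifth was high in both uptake tissues, at 6.41, 6.97, 6.21 and 8.76 in kidney and at 5.96, 7.45, 5.42 and 8.30 in jejunum, against 3.43 to 4.34 on the other 31 arrays. Over the tissue means its Pearson's r with SLC7A9 was 0.98, whereas the representing probeset had 0.54. The sixth was highest in pancreas, at 7.58, 5.34 and 6.51, where lymph node array 1 overlapped at 5.67, and stood at 4.36, 4.31, 4.38 and 4.37 in kidney. In the RefSeq annotation of the assembly UU_Cfam_GSD_1.0 the gene next to SLC6A18 is SLC6A19, a neutral amino acid carrier of gut and kidney, with 0 genes between them. Which transcript each of these probesets reads was not tested.

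**Figure D5:**
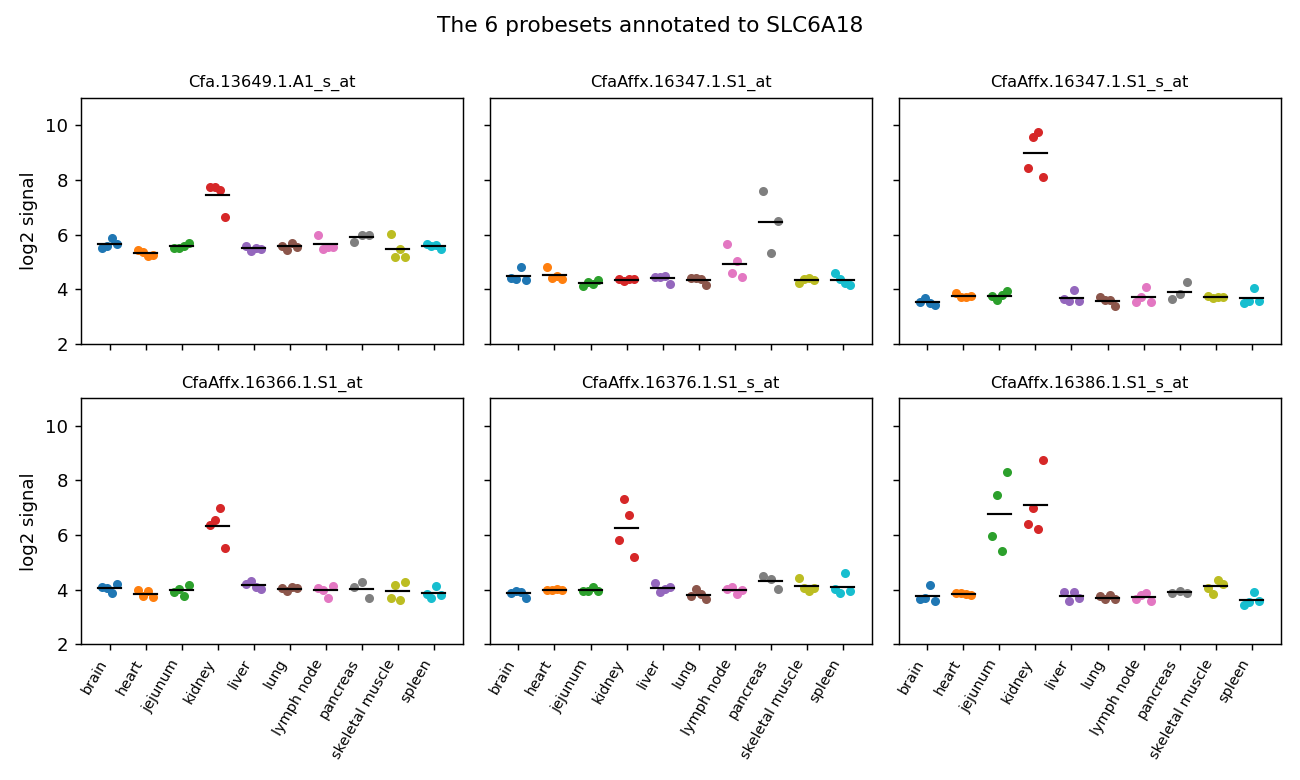
Log2 signal of the 6 probesets annotated to SLC6A18 on the 39 arrays (points) with the tissue mean (line), 1 panel per probeset. In 4 panels only the kidney points are raised, in the lower right panel jejunum and kidney are (tissue means 6.78 and 7.09), and in the upper middle panel pancreas is (6.48).

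All 4 measured glutamate carriers of the SLC1 family, of 5 listed, were called higher in brain (11.2% of all probesets were). SLC1A3, the carrier of astrocytes and radial glia, stood at 12.29, 12.46, 12.51 and 12.61 in brain, against 3.41 to 8.54 on the other 35 arrays (185-fold, adjusted p = 1.38e-20). SLC1A2, which clears most synaptic glutamate, stood at 11.01, 11.07, 11.34 and 12.07 in brain, against a median of 3.33 on the other 35 arrays (190-fold, adjusted p = 7.17e-16). In neither gene did a brain array overlap with another tissue. SLC1A6, known from cerebellar Purkinje cells in rodents, stood at 5.61, 8.32, 6.41 and 6.67 in these cerebrum samples and at 3.35 to 4.27 elsewhere (8.44-fold, adjusted p = 6.73e-14). Astrocyte markers (3 of 3 measured) had a mean of 6.49 to 7.06 on the brain arrays and at most 4.43 on any other array.

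Outside brain these genes differed in their next tissue. SLC1A3 came next in jejunum (7.64, 8.54, 7.85 and 7.73; 5.67-fold over the other 9, adjusted p = 2.97e-08) and was lower in kidney than in jejunum by 3.13 (SE 0.39, adjusted p = 1.08e-07). SLC1A2 came next in liver, where its arrays read 9.02, 5.92, 3.47 and 8.01, between the floor and near the brain level (mean 6.60 ± 2.45, SD, n = 4; 4.81-fold, adjusted p = 0.000108). This was the largest SD within a tissue of any carrier gene, and the call was lost without liver array 1 (2.75-fold, adjusted p = 0.00642) or 4 (3.47-fold, adjusted p = 0.00444), while the fold was 9.92 without array 3. The hepatocyte marker mean ran only between 12.92 and 13.15 on the same 4 arrays. The second SLC1A2 probeset was flat in brain and liver alike, with a highest tissue mean of 3.83, in brain. It was not called by the F test (adjusted p = 0.113) and carried neither the brain nor the liver difference.

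SLC1A1, the glutamate, aspartate and cysteine carrier of neurons and of the kidney brush border, was high in several tissues. It stood at 11.49, 11.54, 11.68 and 11.73 in kidney and at 11.43, 9.86, 11.40 and 11.10 in lung. The fold over the other 9 tissues was 39.6 in kidney (adjusted p = 2.45e-14) and 23.8 in lung (adjusted p = 2.32e-12), and the 2 tissues were not told apart (adjusted p = 0.404). Jejunum (9.35 ± 1.07), brain (9.08 ± 0.65) and liver (8.38 ± 1.37, SD, n = 4 each) followed and were each called higher, at 6.95-, 5.64- and 3.29-fold, the call in liver being lost without liver array 1 (adjusted p = 0.00866) or 4 (adjusted p = 0.00317). In heart, lymph node, skeletal muscle and spleen its 16 arrays lay between 3.13 and 3.92. In pancreas SLC1A1 was called lower (difference -1.84), a call lost after the housekeeping shift (adjusted p = 0.846). Kidney exceeded jejunum 4.78-fold (adjusted p = 0.00027), a call lost without jejunum array 1 or 3 or kidney array 3 or 4 (highest adjusted p = 0.00282).

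The neutral exchangers of the SLC1 family had other patterns. SLC1A5, which exchanges glutamine, alanine and serine, stood at 8.04, 7.75 and 6.82 in pancreas, at 7.74, 7.05, 7.82 and 7.49 in lung and at 7.24, 7.20, 6.11 and 7.70 in lymph node. Pancreas and lung were not told apart (adjusted p = 0.981), nor lung and lymph node (adjusted p = 0.381). It was 3.66-fold higher in pancreas (adjusted p = 1.4e-06), 3.63-fold in lung (adjusted p = 2.68e-07) and 2.54-fold in lymph node (adjusted p = 3.52e-05). The lymph node call was lost after the housekeeping shift (adjusted p = 0.00521), without lymph node array 4 (2.19-fold, adjusted p = 0.0013) and without all marked arrays (difference 1.12, adjusted p = 0.003). Brain, heart, liver and skeletal muscle were called lower, with means between 4.20 and 4.47. With the marked arrays left out, only 1 muscle array remained and the muscle difference was -1.44 (adjusted p = 0.0439), against -1.63 with all arrays. SLC1A4, an alanine, serine and cysteine carrier, stood at 6.60, 6.82, 4.67 and 7.14 in liver (3.33-fold, adjusted p = 5.02e-06), but brain (5.68) was not told apart from it (adjusted p = 0.216).

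Liver was the tissue in which 4 genes from 3 families were enriched. SLC38A3, the sodium-coupled carrier that moves glutamine, asparagine and histidine in hepatocytes, stood at 10.28, 9.09, 9.67 and 9.84 in liver, against a median of 3.83 on the other 35 arrays (43.2-fold, adjusted p = 6.91e-15). SLC38A4, a carrier of small neutral amino acids known from liver and placenta, stood at 10.32, 9.32, 8.29 and 7.57, against a median of 3.14 (46.1-fold, adjusted p = 3.18e-16). SLC7A2, a carrier of arginine, lysine and ornithine, stood at 9.73, 9.42, 8.59 and 7.67, against a median of 3.43 (33.9-fold, adjusted p = 2.9e-14). All liver arrays lay above all other arrays in each of the 3 genes, and the other probesets of SLC38A3 (45.4- and 25.3-fold) and SLC7A2 (11.2-fold) were enriched in liver too. In pancreas these other SLC38A3 probesets were called in opposite directions (differences of 1.81 and -0.89), and the brightest was not called. The lower call was lost after the housekeeping shift (limma adjusted p = 0.00922). SLC6A11, known in brain as a GABA carrier of astrocytes, stood at 6.02, 7.18, 7.73 and 6.97 in liver, against 3.37 to 4.10 on the other 35 arrays (10.5-fold, adjusted p = 6.5e-20). In brain SLC6A11 read only 3.61, 3.85, 3.89 and 3.70, and its other 2 probesets were also liver-enriched, at 16.8- and 14.9-fold. SLC6A12, the betaine carrier, was 2.78-fold higher in liver (5.14, 5.49, 4.36 and 5.49, adjusted p = 3.81e-08), and kidney array 1 overlapped at 5.10.

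For the same 3 liver genes some skeletal muscle arrays were raised too. SLC38A4 read 3.31, 6.60, 5.41 and 4.73 on skeletal muscle arrays 1 to 4, against at most 3.29 on the 31 arrays outside liver and muscle. SLC7A2 read 3.47, 7.13, 5.07 and 5.38 on the same arrays, and SLC38A3 read 4.95, 4.09, 7.90 and 4.60. The SLC38A3 mean of muscle was not told apart from that of kidney (adjusted p = 0.899), and on its other 2 probesets the mean of kidney was the higher of the pair. None of the 3 was called in skeletal muscle. Array 2, with the highest SLC38A4 and SLC7A2, is the muscle array without raised acinar markers (PNLIP 4.01), and array 3 had the highest SLC38A3. The hepatocyte marker mean was at most 4.16 on the muscle arrays. In the lung and heart arrays with ALB between 7.91 and 11.09 SLC38A4 stayed between 3.09 and 3.23. The cause of the raised muscle values was not tested.

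Pancreas had 2 bright carriers of its own. SLC38A5, which like SLC38A3 moves glutamine, asparagine and histidine with sodium, stood at 8.93, 9.48 and 9.36 in pancreas, against 3.33 to 5.59 on the other 36 arrays (42.8-fold, adjusted p = 5.46e-22). On skeletal muscle arrays 1, 3 and 4, where acinar markers were raised, it read 3.61, 3.99 and 3.58. SLC43A1, a carrier of branched-chain amino acids and phenylalanine, stood at 8.68, 9.37 and 7.14 in pancreas, against 3.79 to 7.61 on the other 36 arrays (10.9-fold, adjusted p = 5.55e-10), and pancreas array 3 overlapped with liver. Without pancreas array 3 the SLC43A1 fold was 16.9. A second SLC43A1 probeset was 19.0-fold higher in pancreas, with all 3 arrays above every other. Liver was next for SLC43A1 (7.61, 5.34, 6.15 and 7.29; 2.73-fold, adjusted p = 0.000197), a call lost without liver array 1 (adjusted p = 0.00805) or 4 (adjusted p = 0.00523). SLC38A10, an intracellular member of its family, stood at 7.09, 6.39 and 6.70 in pancreas, against 5.21 to 6.04 elsewhere (2.20-fold, adjusted p = 3.07e-09). Its second probeset had a pancreas mean of 5.60, not told apart from liver (adjusted p = 0.728).

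The remaining pancreas calls were small or turned with the scaling. Of 13 genes called higher in pancreas, 4 had a fold above 2 (SLC38A5, SLC43A1, SLC1A5 and SLC38A10). The other 9, among them the proton-coupled carrier SLC36A2 (4.42, 4.85 and 4.81, fold 1.38, adjusted p = 2.53e-05), had pancreas means between 3.64 and 4.69. SLC36A2 lost its call without pancreas array 2 or 3 (adjusted p = 0.00191 and 0.00159). The glycine carrier SLC6A9 (4.96, 3.64 and 3.74 in pancreas) was not called by the F test. Its pancreas call was lost without pancreas array 1 (1.12-fold, adjusted p = 0.223). That call lay so near the threshold that leaving out most single arrays of other tissues lost it too (adjusted p up to 0.00126, without lung array 4). Of the 20 genes called in either direction in pancreas, 14 kept the call after the housekeeping shift, and 3 of those called lower (SLC38A9, SLC43A2 and SLC7A9) turned to a positive difference that was not called. SLC43A3 kept its lower call, at 4.44, 4.93 and 4.62 in pancreas (10.7-fold lower, adjusted p = 2.02e-08; adjusted p = 0.000125 after the housekeeping shift), though its other 2 probesets lost the call after that shift. In brain it read 6.42, 4.35, 3.95 and 5.37 (8.06-fold lower, adjusted p = 1.03e-08).

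Lung, lymph node and spleen each had few carriers. SLC43A3, which carries purine nucleobases rather than amino acids in human cells, stood at 10.70, 10.54, 10.71 and 10.46 in lung, above all of the other 35 arrays, which ran up to 9.37 (9.13-fold, adjusted p = 8.34e-09). Its fold lies just under the 10-fold step, and those of SLC6A11 (10.5) and SLC43A1 (10.9) just above it. SLC6A4, the serotonin carrier, stood at 6.11, 5.28, 6.37 and 4.94 in lung, against 3.39 to 4.69 elsewhere (3.75-fold, adjusted p = 7.25e-11). In brain it stood at 3.60, 3.67, 3.39 and 3.43. A cerebrum sample holds the fibres but not the cell bodies of serotonin neurons, and the cause of the low brain values was not tested. Of the other monoamine carriers, SLC6A2 and SLC6A3 were not called by the F test, although a second SLC6A3 probeset was 1.40-fold higher in skeletal muscle (adjusted p = 5e-05). That call was lost after the housekeeping shift (adjusted p = 0.0247), and the difference was 0.07 (adjusted p = 0.843) without the marked arrays, which leaves 1 muscle array. SLC38A1, a sodium-coupled glutamine and alanine carrier, stood at 7.04, 7.16, 8.21 and 6.97 in lymph node, against 3.58 to 6.89 elsewhere (5.01-fold, adjusted p = 1.83e-05), and its other 2 probesets were called there as well (7.93- and 3.25-fold). Spleen came next (5.71), and the 2 tissues were not told apart at the threshold used (adjusted p = 0.0422). On the other 2 SLC38A1 probesets pancreas came next (6.65 and 5.80), and arrays outside lymph node reached 7.70 and 7.21. SLC38A9 stood at 5.45, 5.61, 6.50 and 5.45 in lymph node, at 5.18, 5.32, 6.31 and 6.0 in kidney and at 5.74, 5.83, 5.14 and 5.37 in spleen, 3 tissues that were not told apart (adjusted p = 0.929 and 0.713 between neighbours). The spleen call was lost without spleen array 1 or 2 (highest adjusted p = 0.00488). All 3 calls of SLC38A9 were lost after the housekeeping shift (adjusted p = 0.0381 in lymph node, 0.00741 in kidney and 0.202 in spleen).

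SLC6A6, the taurine carrier, had a mean above 5 in every tissue. It stood at 9.53, 9.36, 9.28 and 9.64 in kidney, 9.26, 8.98, 9.44 and 9.17 in spleen, and 8.39, 9.0, 8.34 and 10.00 in liver. Kidney was 3.51-fold above the other 9 (adjusted p = 0.000163) but was not told apart from spleen (adjusted p = 0.845), and the call was lost without kidney array 1, 2 or 4 (highest adjusted p = 0.00184). It was lower in pancreas (5.98, 6.37 and 5.01; 4.79-fold, adjusted p = 2.83e-05) and in skeletal muscle (5.75, 6.85, 4.85 and 6.32; 4.25-fold, adjusted p = 1.84e-05). The pancreas call was lost after the housekeeping shift (adjusted p = 0.218) and without pancreas array 3 (adjusted p = 0.00254). Without the marked arrays, which leaves 1 muscle array, the muscle difference was -1.20 (adjusted p = 0.288). The muscle values were lowest on arrays 1 and 3, where PNLIP read 7.95 and 9.25. Array 4, with the highest PNLIP of the muscle arrays, read 6.32 for SLC6A6. The part of acinar tissue in these values was not tested.

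Brain had further genes from outside the glutamate group. SLC7A14, an orphan protein of the cationic branch found on lysosomes, stood at 7.14, 6.90, 7.41 and 7.71 in brain, against 3.16 to 3.59 on the other 35 arrays (15.6-fold, adjusted p = 7.55e-29). A second SLC7A14 probeset read a mean of 4.15 in brain and 4.16 in pancreas. The other cationic carriers were dim, with SLC7A1 and SLC7A4 not called by the F test and SLC7A3 at 3.72, 3.82, 4.24 and 4.03 in brain (1.34-fold, adjusted p = 5.95e-06), a difference that turned to -0.14 after the housekeeping shift. SLC6A15, a neuronal carrier of branched-chain amino acids and proline, stood at 4.66, 5.35, 4.35 and 5.37 in brain, against at most 4.22 elsewhere (2.30-fold, adjusted p = 6.25e-10), and lost the call after the housekeeping shift (adjusted p = 0.033). SLC43A1 had its lowest mean in brain (3.86 ± 0.05, SD, n = 4), with all arrays below those of every other tissue.

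Heart and skeletal muscle were compared directly as the 2 striated muscles. Of the 98 probesets, 0 were higher in heart (2.57% of all probesets were), where limma had 3 at an unadjusted p under 0.05 and the fit with an ordinary variance called 0. Only 1 was lower in heart (1.41% of all probesets were). It was SLC43A2, at 5.43, 5.26, 5.22 and 5.42 in heart and at 7.48, 6.47, 7.84 and 6.48 in skeletal muscle (difference -1.74, SE 0.29, adjusted p = 6.37e-05). The 2 highest muscle values were on arrays 1 and 3, where acinar markers were raised. Array 4, where they were raised too, read 6.48, close to the 6.47 of array 2 without raised markers. The difference was -1.14 without the marked arrays, which leaves 1 muscle array, and the call was lost. It was also lost after the housekeeping shift (difference -1.77, limma adjusted p = 0.00218). The other SLC43A2 probesets were not called between the 2 muscles, with differences of -0.46, -0.59 and -0.0017 (lowest adjusted p = 0.413). The part of acinar tissue in these values was not tested. SLC38A4 (-1.89, adjusted p = 0.00127) and SLC7A2 (-1.80, adjusted p = 0.00541), at the floor in all heart arrays and raised in 3 of 4 muscle arrays, missed the threshold. At the other end, SLC1A2 had a difference of 1.25 (adjusted p = 0.212), SLC43A1 of 1.14 (adjusted p = 0.0599) and SLC6A6 of 0.65 (adjusted p = 0.498), and these were not called.

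Of the 25 genes with several probesets, 16 had at least 2 called by the F test, and in 12 of these the called probesets had the same top tissue. The 4 exceptions were SLC6A6 (kidney and liver), SLC6A18 (kidney and pancreas), and SLC6A15 and SLC7A14 (brain and pancreas each). In all, 41 of 98 probesets never read above 5 on any array, so a missing call in those does not show equal levels. In the RefSeq annotation SLC38A1 and SLC38A2 are adjacent genes, yet SLC38A1 was called in lymph node while SLC38A2, a carrier of small neutral amino acids that cells raise when starved, was not called by the F test. SLC38A2 varied within tissues instead, reading 5.79, 4.20, 3.24 and 6.11 in spleen and 3.31, 4.28, 5.97 and 5.23 in lymph node.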

How the data were processed

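The authors deposited 1 table of log2 signals for 39 arrays. They had computed it in Partek 6.4 by RMA, with a correction for probe sequence and GC content, quantile normalization and median polish, which sets all arrays to nearly 1 distribution and can move genes in a tissue where many others differ. The deposited log2 values were used as they stood. Gene names came from the platform annotation, and 98 probesets with 1 symbol were kept by the family prefixes.

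Tissue means were fitted to all 42860 probesets in limma 3.58.1 (R 4.3.3), and each tissue was compared with the mean of the other 9, kidney with jejunum and heart with skeletal muscle. Benjamini-Hochberg adjustment ran over all probesets, at a false discovery rate of 0.001. The scan date used by the methods as a random factor is not in the labels and was left out. The number of arrays (3 or 4 per tissue) limits the precision. Genes named with full values were, per tissue, the 4 largest folds called above 2, the heavy and light chains, every enriched gene, the brightest gene of each family and the extremes of the 2 direct comparisons, and others are named for their pattern. The members and gene lists were chosen with earlier results of these data known. The fit was tested on simulated data. Alternatives covered scaling, variance estimate, dim probesets, the threshold, the choice of probeset, the replicate number as a block and leaving out each array. Pairing by replicate number was checked and is not given by the labels. The annotation used for neighbouring genes was RefSeq on UU_Cfam_GSD_1.0.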

Additional observations from a re-analysis of the deposited data

Results flagged for a closer look

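A sample far from the others of its tissue was looked for in 34 groups of 4 arrays, one for each described gene and tissue, with Dixon's ratio of the gap to the whole range. Chance marks about 1 in 20 such groups, and 3 were marked. SLC38A1 read 8.21 on lymph node array 3, against 7.04, 7.16 and 6.97 on the other lymph node arrays (ratio 0.841). SLC38A9 read 6.50 on the same array, against 5.45, 5.61 and 5.45 on the others (ratio 0.846). SLC6A18 read 6.65 on kidney array 4, against 7.73, 7.75 and 7.64 on the others (ratio 0.895).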

How the results depend on the processing

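Counts here are of carrier probesets called in either direction. After the housekeeping shift, the F test called 97 in place of 64, heart 6 in place of 12, jejunum 22 in place of 10, pancreas 80 in place of 35, skeletal muscle 3 in place of 8, and heart against skeletal muscle 0 in place of 1. With an intensity trend in the variance, heart against skeletal muscle had 2. With dim probesets left out before adjustment, pancreas had 20 and heart against skeletal muscle 2. At a false discovery rate of 0.05 there were 28 in brain, 32 in heart, 26 in jejunum, 41 in kidney, 36 in liver, 38 in lung, 28 in lymph node, 53 in pancreas, 35 in skeletal muscle and 29 in spleen. Counting genes in place of probesets gave 6 in jejunum, 11 in kidney, 15 in liver, 7 in lung, 10 in lymph node and 20 in pancreas. Without the 5 arrays with raised acinar markers, an alternative chosen after seeing the data that leaves 1 skeletal muscle array assumed to vary like the other tissues, jejunum had 16, skeletal muscle 4, and heart against skeletal muscle 2. The cause was not tested in any of these.

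Leaving out 1 array at a time gave 62 to 65 by the F test, 15 to 19 in brain, 9 to 15 in heart, 10 to 13 in jejunum, 18 to 23 in kidney, 19 to 24 in liver, 10 to 15 in lung, 12 to 17 in lymph node, 24 (without pancreas array 1) to 40 in pancreas, 5 (without skeletal muscle array 4) to 11 in skeletal muscle and 6 (without spleen array 1) to 13 in spleen. Enriched probesets numbered 20 to 24, kidney against jejunum 12 to 17, and heart against skeletal muscle 1 to 3 (3 without skeletal muscle array 1, 2 without liver array 1 or 4).

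The replicate number was tried as a block, although the labels do not say that it marks an animal. With the replicate block the F test called 66, heart 13, lung 14, pancreas 36 and spleen 11, and the other counts were equal to those without it (brain 17, jejunum 10, kidney 20, liver 23, lymph node 16, skeletal muscle 8, enriched 22, kidney against jejunum 15, heart against skeletal muscle 1). Deviations of arrays with the same number had a median correlation of 0.138 over 171 pairs, of which 101 were over 0.1, and 30 of 39 arrays correlated best with their own number, a hint from the data and not from the design.

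Of 112 calls of a gene in a tissue or a direct comparison, 20 were lost without 1 of the arrays and 5 moved by over 1.5 times. Those not given with the results were lower calls (SLC1A1 and SLC43A2 in pancreas, SLC38A5 in skeletal muscle and spleen, SLC38A6 in heart, SLC43A1 in lymph node, SLC43A2 in liver, and SLC1A3 in lymph node, which moved) and the higher calls of SLC38A8 and SLC6A5 in pancreas. Of 1591 values of 34 gene and tissue results under the alternatives, 1574 kept their direction and side of the threshold, 10 missed it, 7 newly passed it (all SLC7A8 in pancreas) and 0 reversed. The 10 were SLC6A6 in kidney (3), SLC36A2 in pancreas (2), SLC7A11 in pancreas (2), and SLC38A9 in lymph node, SLC7A10 in brain and SLC7A6 in lymph node (1 each). Many carriers lie near the array background, which limits what could be called.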

Other observations

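Genes that work beside the carriers were read from lists chosen with earlier results of these data known. Of 9 brush border partners of amino acid uptake, 7 were measured, of which 6 were called higher and 1 lower in kidney (of all probesets, 7.41% were higher and 3.94% lower) and 5 higher and 2 lower in jejunum (6.12% and 3.85%). Liver had 3 higher and 1 lower (6.72% and 6.15%), pancreas 3 and 3 (13.4% and 11.1%), lung 2 and 5 (7.26% and 4.22%) and brain 1 and 6 (11.2% and 7.74%). No partner was higher in the other 4 tissues, where 7 were lower in heart (6.55%) and in spleen (4.83%), and 6 in lymph node (6.93%) and in skeletal muscle (8.14%). CLTRN (collectrin), which some SLC6 carriers need to reach the membrane, stood at 11.58, 11.74, 12.05 and 11.62 in kidney (222-fold over the other 9 tissues) and at 8.5, 9.49, 8.69 and 8.53 in liver (23.0-fold). SLC15A1, the intestinal carrier of small peptides, stood at 11.57, 11.57, 11.24 and 11.42 in jejunum (187-fold) and at 9.98, 9.62, 7.98 and 9.10 in liver (32.3-fold). Its renal relative SLC15A2 was 44.3-fold higher in kidney, 11.99-fold in brain and 10.1-fold in lung. The peptidases of the brush border followed both organs, with ANPEP 53.9-fold higher in jejunum and 17.4-fold in kidney, DPEP1 11.6-fold in jejunum and 26.2-fold in kidney, and GGT1 11.8-fold in jejunum and by 4.32 on the log2 scale in kidney. DPEP1 (10.8-fold) and GGT1 (7.95-fold) were also called in pancreas. SLC16A10, a basolateral carrier of aromatic amino acids, was highest in pancreas (8.90, 9.34 and 7.47; 13.2-fold).

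Of 11 genes that make, break down or package glutamate and GABA, 7 were measured, and 4 of these were called higher in brain (11.2% of all probesets were). GAD1, which makes GABA, was 160-fold higher in brain, and the vesicular carriers SLC17A7 (1.39-fold) and SLC32A1 (1.34-fold) were higher there by small steps near the array background. GLUL, which makes glutamine from glutamate, was 8.91-fold higher in brain and 4.49-fold in spleen, and 13.1-fold lower in pancreas. ABAT, which breaks down GABA, was 17.0-fold higher in kidney and 4.57-fold in jejunum. Of 12 genes of the response to amino acid shortage, 10 were measured. In pancreas 3 were called higher and 2 lower (13.4% and 11.1% of all probesets), and in liver 2 higher and 0 lower (6.72% and 6.15%). Pancreas had ASNS (10.25, 10.99 and 10.27; 23.2-fold), PSAT1 (9.05-fold) and NUPR1 (7.06-fold) higher, and PCK2 (2.08-fold) and DDIT3 (1.78-fold) lower. Liver had PCK2 (16.1-fold) and TRIB3 (1.61-fold) higher. In heart 5 of the 10 were called lower (6.55% of all probesets were), and DDIT3 alone was called higher (7.47%).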
